A study of Mus musculus with 16 samples.

Results

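Transcript levels of 10 genes of the Wnt/β-catenin pathway were followed through induction of the kinase ERK and its reversal in mouse pluripotent cells. The genes were the Wnt target genes Axin2, Sp5 and Nkd1, the TCF/LEF transcription factors Tcf7, Tcf7l1, Tcf7l2 and Lef1, and the pathway components Ctnnb1, Lrp6 and Porcn. They were taken by gene symbol with no threshold on their values, from a list drawn up with earlier results of these data known, and each symbol matched 1 of the 52636 Ensembl gene IDs in the count table. The counts of 8 of the 10 were high enough for testing, among 12742 genes that were. Sp5 and Nkd1 were too low and are given as counts.

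The cells were of the line CRAFR26 and of the cell type the labels call RSC, which the design text describes as derived from mouse embryonic stem cells carrying a c-RAF construct. Adding 4-hydroxytamoxifen (4OHT) activates this construct and, through it, ERK. RNA was sequenced from 16 libraries in 4 groups of 4, and each group held 2 libraries from clone 4 and 2 from clone 8, each a clonal line. The usual N2B27 medium contained LIF at 1000 U/ml, the MEK inhibitor PD03 at 1 µM and IWP2 at 2 µM, an inhibitor of the enzyme Porcupine that blocks Wnt secretion. For all 4 groups PD03 gave way to the FGF receptor inhibitor PD17 at 250 nM for the last 48 h. The group 0h was collected with no 4OHT, 2h and 4h were collected after 2 h and 4 h of 4OHT at 250 nM, and rev received 4 h of 4OHT and then 2 h of a MEK inhibitor whose dose was not stated. Cells held for 6 h in 4OHT alone were not analysed here, so in rev the inhibitor and the longer culture cannot be told apart. The labels do not say whether the 2 libraries of a clone came from separate cultures, so p-values measure the spread between these samples, which may be in part technical.

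In canonical Wnt signalling, ligands made fit for secretion by Porcupine bind Frizzled receptors together with LRP5 or LRP6, and β-catenin is then no longer degraded. β-catenin enters the nucleus, binds TCF/LEF factors and turns on target genes such as Axin2, Sp5 and Nkd1, several of which feed back to dampen the pathway. In mouse pluripotent cells TCF7L1 acts mainly as a repressor of pluripotency genes such as Nanog and Esrrb, and LEF1 and TCF7 are associated with activation.

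The promoters of the target genes Sp5 and Axin2 are shown because TCF/LEF factors act on such genes, and the first promoters of Tcf7 and Tcf7l2 because these transcripts changed together in 1 clone. Each runs from 250 bases before to 50 bases after a RefSeq start site on GRCm38.p6, read 5′ to 3′ on the gene's strand. Capitals mark a match on either strand to the TCF/LEF letters CTTTGAA or CTTTGAT. The Sp5 window is chr2:70474673-70474972 on the plus strand, that of Axin2 chr11:108920099-108920398 on the plus strand, that of Tcf7 chr11:52282965-52283264 on the minus strand and that of Tcf7l2 chr19:55741560-55741859 on the plus strand.
Sp5: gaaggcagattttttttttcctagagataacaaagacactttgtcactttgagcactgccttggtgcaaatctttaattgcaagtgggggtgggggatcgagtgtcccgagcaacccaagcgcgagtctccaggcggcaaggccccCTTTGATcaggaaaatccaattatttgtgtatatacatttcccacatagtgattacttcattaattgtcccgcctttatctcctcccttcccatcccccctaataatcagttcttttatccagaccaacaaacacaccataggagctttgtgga
Axin2: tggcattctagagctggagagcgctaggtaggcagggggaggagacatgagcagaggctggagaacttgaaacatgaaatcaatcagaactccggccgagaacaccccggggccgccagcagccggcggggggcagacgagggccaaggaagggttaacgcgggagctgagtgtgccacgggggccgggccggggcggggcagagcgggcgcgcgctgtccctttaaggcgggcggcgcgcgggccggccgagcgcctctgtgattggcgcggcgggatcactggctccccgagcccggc
Tcf7: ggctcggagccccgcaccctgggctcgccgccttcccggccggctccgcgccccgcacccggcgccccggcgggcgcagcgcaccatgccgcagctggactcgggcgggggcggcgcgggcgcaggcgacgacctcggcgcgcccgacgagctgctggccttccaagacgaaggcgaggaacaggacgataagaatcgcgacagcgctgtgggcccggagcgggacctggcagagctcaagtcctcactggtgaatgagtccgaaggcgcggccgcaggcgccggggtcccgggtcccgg
Tcf7l2: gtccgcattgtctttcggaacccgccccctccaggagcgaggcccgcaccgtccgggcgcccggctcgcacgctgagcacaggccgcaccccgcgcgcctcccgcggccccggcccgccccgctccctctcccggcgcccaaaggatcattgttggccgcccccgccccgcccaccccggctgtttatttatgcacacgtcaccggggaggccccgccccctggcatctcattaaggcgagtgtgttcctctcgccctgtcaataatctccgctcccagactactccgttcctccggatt
These letters occurred in 8.65% of 32851 promoters of this length in the RefSeq table. RefSeq promoters matched 8 of the 10 genes, with 14 start sites in all, and Porcn and Lrp6 had none in the table. Sp5 held the 1 match among these 14 promoters, CTTTGAT on the plus strand at 104 to 98 bases before the start site. The ETS letters CCGGAAG, a motif of factors that ERK can act on, were found in 8.86% of all promoters and among these genes in 1 only, the second start of Tcf7, on the minus strand at 25 to 19 bases before it.

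Libraries held 4313599 to 10444126 counts (4.31 M to 10.4 M), of which 47.1 to 79.7% fell on 9 features that each took above 1% of counts, so 1.25 M to 5.41 M counts per library informed the other genes. A count of 3, taken as the floor, corresponded to 0.21 to 0.908 CPM (counts scaled to library size with edgeR's TMM factors). By total counts the lowest was 4h clone 4 library 2. Outside the 9 features the lowest was rev clone 8 library 1, which stood apart, with 79.7% of its counts on them and a TMM factor of 0.537, and the 2 rev libraries of clone 8 differed more than any other pair (chi-square per degree of freedom 74.3, against 4.42 to 38.8). Without rev clone 8 library 1 no call of the 8 tested genes changed. As a check on induction, all 10 of 10 ERK response genes (among them Dusp6, Spry4 and Etv4) rose at 2h and at 4h, with median log2 changes of 2.82 and 3.5, and 9 of 10 fell at rev against 4h. In clone 8 the change at 4h was smaller for 8 of these 10 genes, with a median clone difference of -2.51. The summed level of 8 pluripotency markers lay between 915 and 1372 CPM in all libraries, that of 7 formative or primed markers between 87.5 and 206 CPM, that of 5 trophectoderm markers between 28.9 and 78.9 CPM and that of 5 neuroectoderm markers between 36.7 and 66.3 CPM, with the highest neuroectoderm sum at 4h. Sums were lower for 7 primitive endoderm markers (3.32 to 9.99 CPM), 5 mesendoderm markers (5.0 to 9.65 CPM) and 6 fibroblast markers (0.613 to 3.47 CPM). No marker was at 0 in all libraries. At or under 3 counts in every library were 3 of the 6 fibroblast markers and 1 each of the primitive endoderm, mesendoderm and neuroectoderm markers. The highest value of a single marker was 65.4 CPM in the trophectoderm list and 43.4 CPM in the neuroectoderm list, so 1 gene can make up much of these sums. The part of these lists in the results was not tested. The first principal component (51.0% of variance) separated the clones. On the third (8.57%), all 0h and 4h libraries lay on one side and all 2h and rev libraries on the other, so contrasts 4h against 0h and rev against 2h compare libraries of the same side and the other 4 cross it. Its part in the results was not tested.

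Per kilobase of exon (RPKM, from TMM-scaled CPM), the 10 transcripts spanned a wide range before induction. Ctnnb1, which encodes β-catenin, was the most abundant at 41.3 ± 3.97 RPKM (SD, n = 4). Tcf7l1 followed at 22.8 ± 4.25 RPKM, the highest of the 4 TCF/LEF factors. Tcf7 at 8.82 ± 2.02 and Lrp6 at 8.20 ± 3.06 RPKM overlapped. Tcf7l2 came next at 2.17 ± 0.275 RPKM, followed by Porcn at 1.30 ± 0.271 and Axin2 at 0.804 ± 0.142 RPKM, which overlapped each other. Nkd1 at 0.26 ± 0.0659 and Lef1 at 0.229 ± 0.129 RPKM also overlapped, and Sp5 was last at 0.0475 ± 0.0332 RPKM. The abundant end of the order was therefore β-catenin and the repressor-type factor, and the low end held the 3 target genes and Lef1. Taking the longest transcript as the length exchanged Tcf7 with Lrp6 and Nkd1 with Lef1, the pairs that overlapped, in this order at 0h. At 2h Porcn was at 4.34 ± 1.53 RPKM and Tcf7l2 at 2.07 ± 0.0927 RPKM without overlap, but with the longest transcript as length they were at 4.96 ± 1.75 and 4.89 ± 0.219 RPKM and overlapped.

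**Figure D1:**
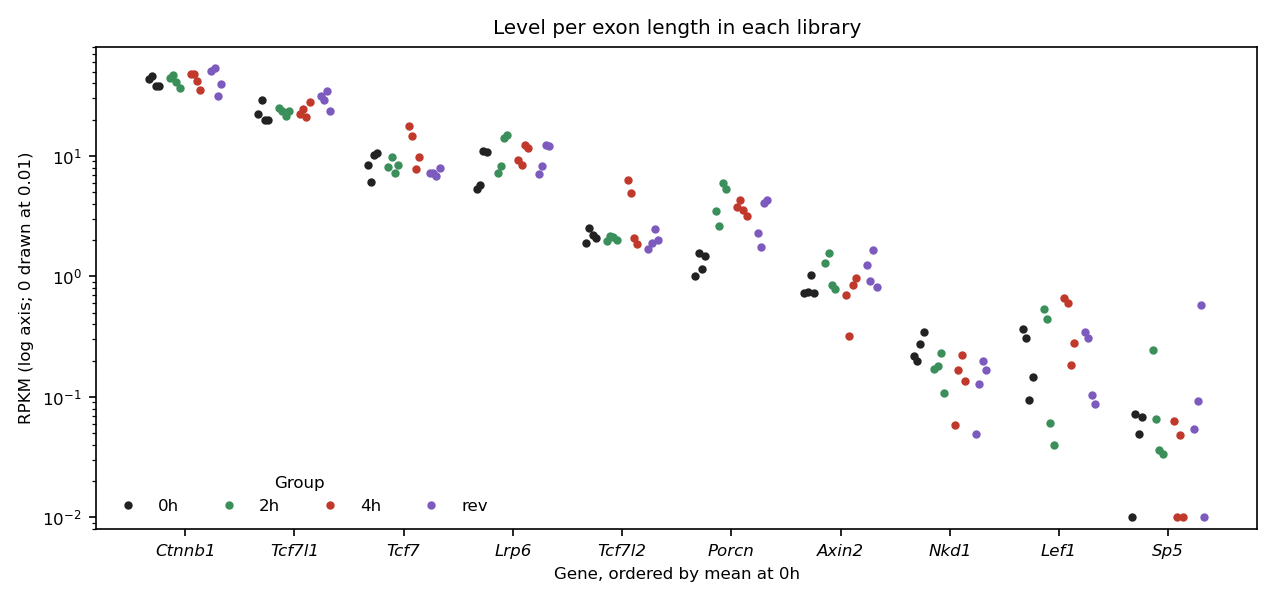
Level per exon length (RPKM, log axis) of the 10 genes in each of the 16 libraries, coloured by group and ordered by the mean at 0h; 1 point is 1 library and values of 0 are drawn at the bottom. Ctnnb1 (41.3 RPKM at 0h) and Tcf7l1 (22.8) lie above the other genes, and Axin2, Nkd1, Lef1 and Sp5 lie at the low end.

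At 2h against 0h, 2 of the 8 tested genes rose, Porcn and Lrp6, where 17% of all tested genes were called and 9.49% rose (adjusted p under 0.05, edgeR's quasi-likelihood test with Benjamini-Hochberg adjustment over 12742 genes). Porcn and Lrp6 were also the 2 of 8 called at 4h against 0h, again upward, where 12.9% of all tested genes were called and 7.35% rose. At 4h against 2h, 2 of 8 rose, Tcf7l2 and Lef1 (12.1% of all tested genes called, 5.78% upward). At rev against 4h, 3 of 8 fell, Tcf7, Tcf7l2 and Lef1 (9.61% called, 5.1% downward). At rev against 0h, 1 of 8 was higher, Porcn (10.5% called, 5.51% upward). At rev against 2h 0 of 8 were called by edgeR or DESeq2, where edgeR called 1.78% of all tested genes, and 2 of 8 (Tcf7l1 and Porcn) had an unadjusted p under 0.05. The median log2 change of the 8 was 0.04 at 2h, 0.42 at 4h and -0.20 at rev against 4h, beside 0.00, -0.01 and 0.00 over all tested genes. With library totals as the only scaling, 5 of these calls were lost, Lrp6 at 2h (adjusted p = 0.198, edgeR) and at 4h (0.63), Tcf7l2 (0.205) and Lef1 (0.145) at 4h against 2h, and Porcn at rev against 0h (0.0575), and Porcn at rev against 2h was then called (0.0428). With 8 genes these counts are a description, and the comparisons share groups of libraries.

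**Figure D2:**
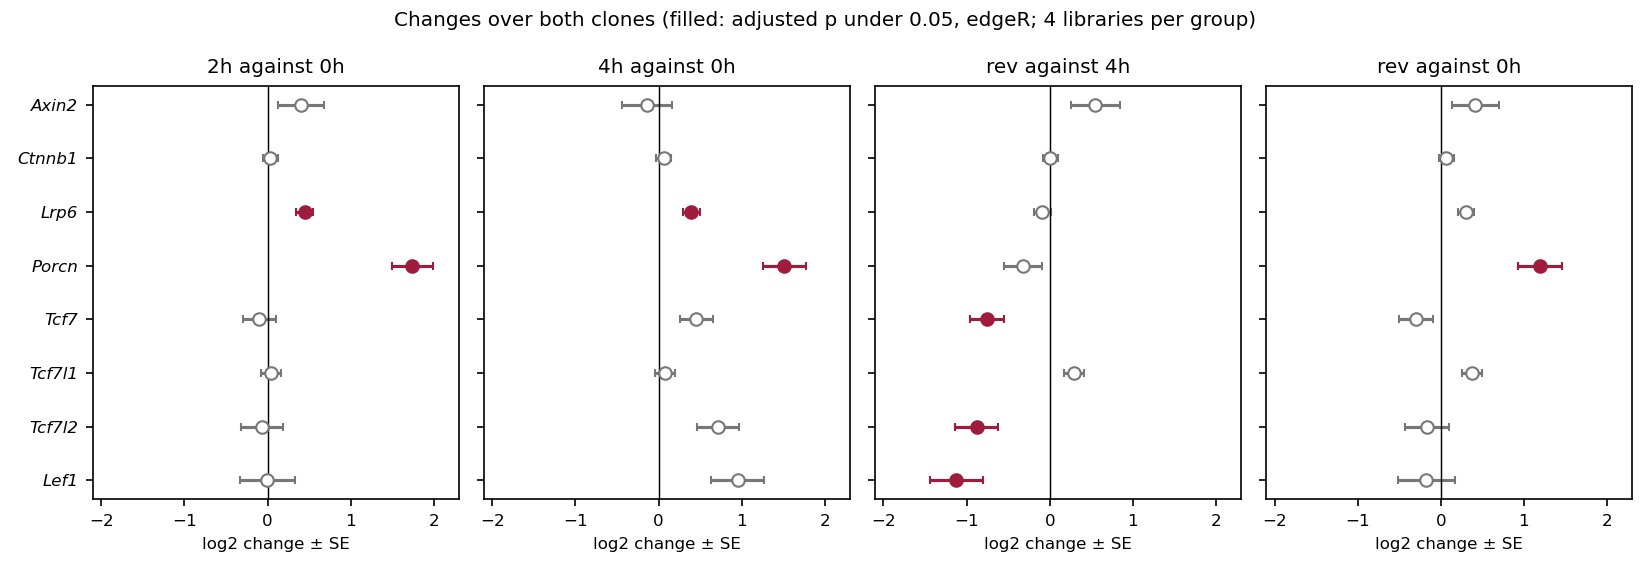
Log2 change with its standard error for the 8 tested genes in 4 comparisons, over both clones (4 libraries per group); filled red points have an adjusted p under 0.05 in edgeR's quasi-likelihood test. Porcn (1.74) and Lrp6 (0.44) lie to the right at 2h, and Tcf7 (-0.75), Tcf7l2 (-0.88) and Lef1 (-1.12) lie to the left at rev against 4h.

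Porcn, on chromosome X (ENSMUSG00000031169, chrX:8193848-8206525, minus strand, GRCm38), encodes Porcupine, the acyltransferase that attaches a lipid to Wnt proteins and the target of IWP2, which the usual medium contained. Its level at 0h was 3.0 and 4.70 CPM in the libraries of clone 4 and 3.42 and 4.45 CPM in those of clone 8. At 2h it was 10.5 and 7.88 CPM in clone 4 and 17.7 and 16 CPM in clone 8. All 4 libraries at 2h therefore lay above all 4 at 0h, and the rise was 3.35-fold (log2 1.74 ± 0.25 SE, adjusted p = 0.000107, edgeR). At 4h the levels were 11.2 and 13 CPM in clone 4 and 10.8 and 9.49 CPM in clone 8, again above all 0h libraries, with a 2.86-fold rise over 0h (log2 1.51 ± 0.259 SE, adjusted p = 0.000627, edgeR). In RNA from whole cultures, a change in the number of expressing cells and in RNA per cell cannot be told apart. These were the only calls against 0h that held under every alternative fit and with each of the 16 libraries left out in turn.

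The clones overlapped in Porcn at 0h only, with clone 8 the higher at 2h and at rev and the lower at 4h. The rev libraries of clone 4 held 6.89 and 5.24 CPM, below both of its 4h libraries, and those of clone 8 held 12.1 and 12.8 CPM, above both of its 4h libraries. Over both clones rev did not differ detectably from 4h (log2 -0.32 ± 0.226 SE, adjusted p = 0.404, edgeR) and remained 2.29-fold above 0h (log2 1.19 ± 0.263 SE, adjusted p = 0.00647), a call that was lost without the clone term (adjusted p = 0.0555). The difference between the clones in the change from 4h to rev was itself called (clone 8 minus clone 4, log2 1.28 ± 0.29 SE, adjusted p = 0.00269, edgeR). In clone 4 alone Porcn fell by 0.97 on the log2 scale (adjusted p = 0.00254, edgeR), and its excess over 0h was then 0.61 (adjusted p = 0.147). In clone 8 alone it was lower at 4h than at 2h by 0.72 on the log2 scale (adjusted p = 0.00337, edgeR) and its level at rev was 1.69 above 0h (adjusted p = 2.68e-05). Of the 10 ERK response genes, 6 also had a smaller fall at rev in clone 8, and the part of this in the Porcn result was not tested.

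Lrp6 (ENSMUSG00000030201, chr6:134446476-134566965, minus strand) encodes the co-receptor that Wnt ligands bind with Frizzled. At 0h it held 72.9 and 79.0 CPM in clone 4 and 150 and 147 CPM in clone 8. At 2h the values were 98.8 and 113 CPM in clone 4 and 192 and 205 CPM in clone 8. The groups overlapped over both clones, but within each clone both 2h libraries lay above both 0h libraries. The rise was 1.36-fold (log2 0.44 ± 0.099 SE, adjusted p = 0.00476, edgeR). At 4h the levels were 126 and 114 CPM in clone 4 and 167 and 159 CPM in clone 8, a rise of 1.31-fold over 0h (log2 0.39 ± 0.1 SE, adjusted p = 0.0132, edgeR). At rev they were 96.7 and 112 CPM in clone 4 and 169 and 165 CPM in clone 8 (log2 0.30 above 0h, adjusted p = 0.0554, edgeR). The rise at 4h was seen in clone 4 (log2 0.66, adjusted p = 0.000166, edgeR) and was 0.14 in clone 8 (adjusted p = 0.408), and the clone difference was -0.53 ± 0.149 SE (adjusted p = 0.0275). The call at 4h was lost without the 0h clone 4 library 1 (adjusted p = 0.0611, edgeR) or the 4h clone 4 library 1 (0.0633), and the clone difference was lost without any 1 of 6 libraries (0h clone 4 library 1, both 0h clone 8 libraries, 4h clone 4 library 1 and both 4h clone 8 libraries; adjusted p from 0.0572 to 0.235).

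The clones differed in level for 4 of the 8 genes, Lrp6, Porcn, Lef1 and Ctnnb1 (34.9% of all tested genes called). Clone 8 carried more Lrp6 RNA than clone 4 in every group without overlap, 1.68-fold over all 4 groups (log2 0.75 ± 0.07 SE, adjusted p = 9.51e-08, edgeR). The surrounding genes on chromosome 6 had the same direction. Among the 31 tested genes between 130 and 140 Mb, 22 were higher in clone 8 and 0 lower, with a median log2 difference of 0.63. Bins of 10 Mb from 110 to 150 Mb had medians of 0.45 to 0.63, against -0.01 over all tested genes and 0.02 in the bin of Tcf7l1, which lies on the same chromosome. The part of this regional difference in the Lrp6 level was not tested.

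Ctnnb1 (ENSMUSG00000006932, chr9:120929216-120960507, plus strand) encodes β-catenin itself, whose activity is set mainly by protein stability. Its level was between 184 and 250 CPM in all 12 libraries of 0h, 2h and 4h and between 162 and 279 CPM at rev. The groups overlapped in every comparison, and none of the 6 group comparisons was called (log2 from 0.00 to 0.07, adjusted p of 0.698 or more, edgeR). Clone 4 was higher than clone 8 in every group, by 1.26-fold overall (log2 -0.33 ± 0.063 SE for clone 8 minus clone 4, adjusted p = 0.000368, edgeR), a call lost with library totals as scaling (0.397). Of its exon sequence 15.1% is shared with other annotated genes, mostly Ulk4 on the opposite strand, and whether reads were counted by strand is not given in the sources used here.

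**Figure D3:**
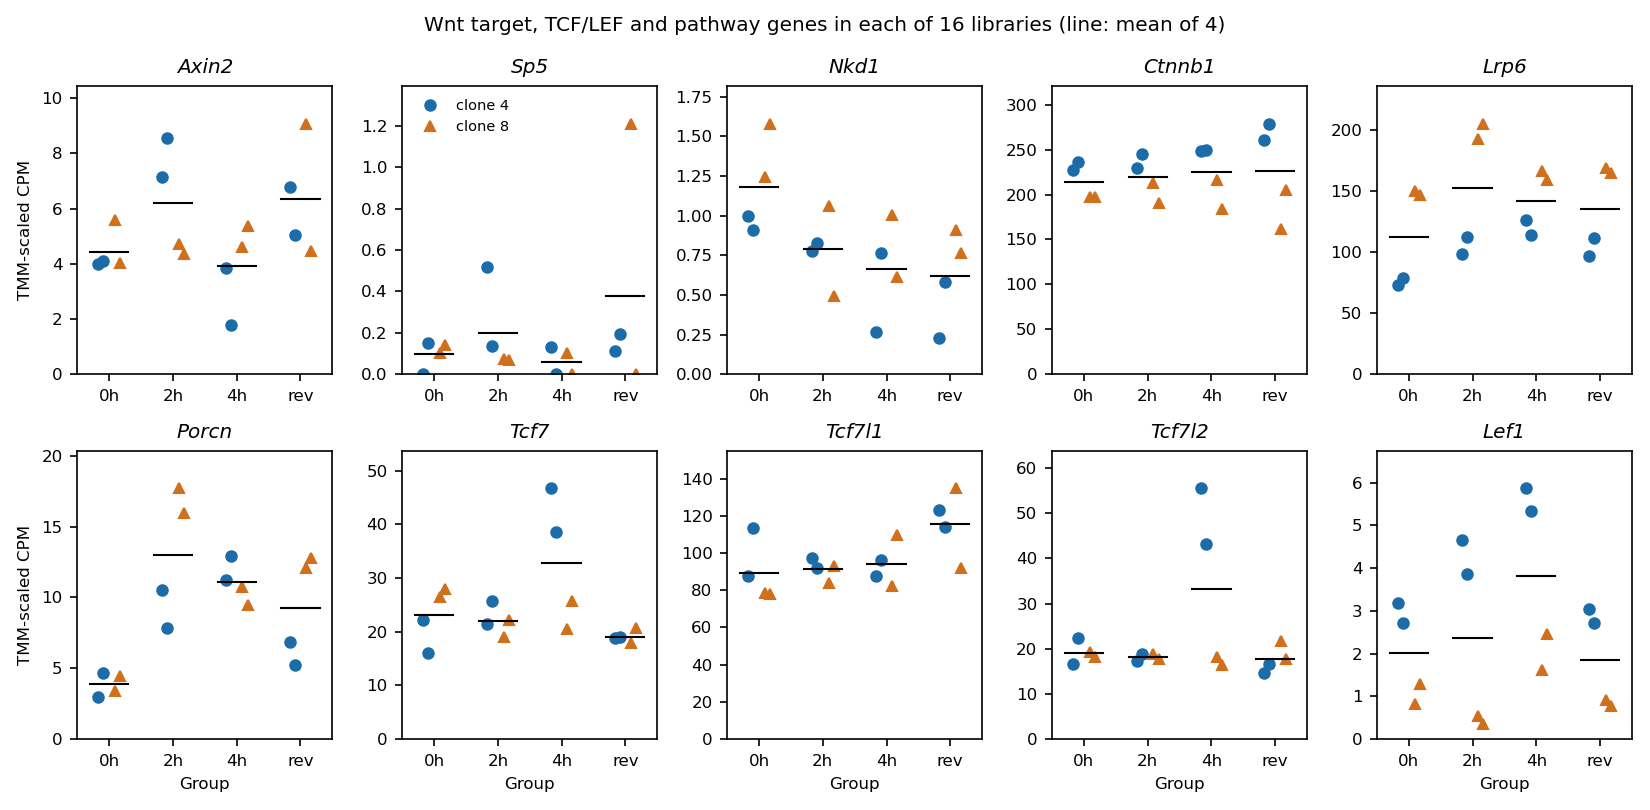
TMM-scaled CPM of the 10 genes in each library by group; blue circles are clone 4, orange triangles clone 8 and the black line is the mean of 4 libraries, with each vertical axis starting at 0. Porcn is above its 0h range in all libraries of 2h and 4h, and Tcf7 and Tcf7l2 are high at 4h in clone 4 (46.7 and 38.6, 55.5 and 43.2 CPM) but not in clone 8.

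Among the TCF/LEF factors, Tcf7l2 (ENSMUSG00000024985, chr19:55741820-55933654, plus strand) had the clone difference with the smallest adjusted p, that in the change from 4h to rev. It was between 16.6 and 22.3 CPM in the 4 libraries at 0h and between 17.2 and 18.9 CPM at 2h. At 4h it was 55.5 and 43.2 CPM in clone 4 but 18.2 and 16.4 CPM in clone 8. At rev it was 14.7 and 16.6 CPM in clone 4 and 21.8 and 17.7 CPM in clone 8. The 2 clone 4 libraries at 4h were therefore the only 2 of 16 above 22.3 CPM. In clone 4 alone the rise from 0h was 1.34 on the log2 scale (± 0.161 SE, adjusted p = 5.35e-07, edgeR) and the fall at rev was -1.66 (± 0.154 SE, adjusted p = 8.11e-09). In clone 8 alone the changes were -0.10 (± 0.132 SE, adjusted p = 0.71) and 0.13 (± 0.142 SE, adjusted p = 0.709). The clone difference was called for both steps, with -1.45 ± 0.215 SE at 4h against 0h (adjusted p = 1.93e-05, edgeR) and 1.81 ± 0.218 SE at rev against 4h (adjusted p = 5.96e-07).

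Tcf7 (ENSMUSG00000000782, chr11:52252371-52283014, minus strand), which encodes TCF1, moved in a like way in clone 4. It was 22.2 and 16.1 CPM in clone 4 and 26.5 and 27.9 CPM in clone 8 at 0h. At 2h it was 21.4 and 25.7 CPM in clone 4 and 18.9 and 22.2 CPM in clone 8. At 4h it was 46.7 and 38.6 CPM in clone 4 and 20.4 and 25.7 CPM in clone 8, so only the libraries of clone 4 lay above the 0h range. At rev all 4 libraries were close, from 17.9 to 20.7 CPM. In clone 4 alone the rise at 4h was 1.18 on the log2 scale (± 0.161 SE, adjusted p = 3.76e-06, edgeR) and rev was lower than 4h by the same amount (-1.18, adjusted p = 1.42e-06). In clone 8 alone Tcf7 was lower at 2h (log2 -0.40 ± 0.122 SE, adjusted p = 0.0261, edgeR), and its change at 4h was -0.25 (adjusted p = 0.269). In that clone rev was lower than 0h (-0.46, adjusted p = 0.0445, edgeR), and the change from 4h to rev was -0.21 (adjusted p = 0.496).

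Clone differences were called for Tcf7 in all 3 steps tested: -0.72 ± 0.214 SE at 2h against 0h (adjusted p = 0.0318, edgeR), -1.45 ± 0.215 SE at 4h against 0h (adjusted p = 2.01e-05) and 0.98 ± 0.219 SE at rev against 4h (adjusted p = 0.00217). In all, 1 of 8 genes had a called clone difference at 2h (7.94% of all tested genes), 3 of 8 at 4h (5.72%) and 3 of 8 at rev against 4h (13.2%). At 4h these were Tcf7, Tcf7l2 and Lrp6, and at rev Tcf7, Tcf7l2 and Porcn. The clones also differed in the ERK response genes, 8 of 10 of which changed less in clone 8 at 4h, and the part of this in the split of the TCF genes was not tested. The difference at 2h was lost without any 1 of 5 libraries (0h clone 4 library 2, both 0h clone 8 libraries, 2h clone 4 library 2 and 2h clone 8 library 1; adjusted p from 0.0899 to 0.284, edgeR), and that at rev without the rev clone 8 library 2 (0.85, adjusted p = 0.0611). With library totals as the only scaling, 6 of the 7 clone differences were lost (adjusted p of 0.177 or more, edgeR), all but that of Tcf7l2 at rev against 4h.

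**Figure D4:**
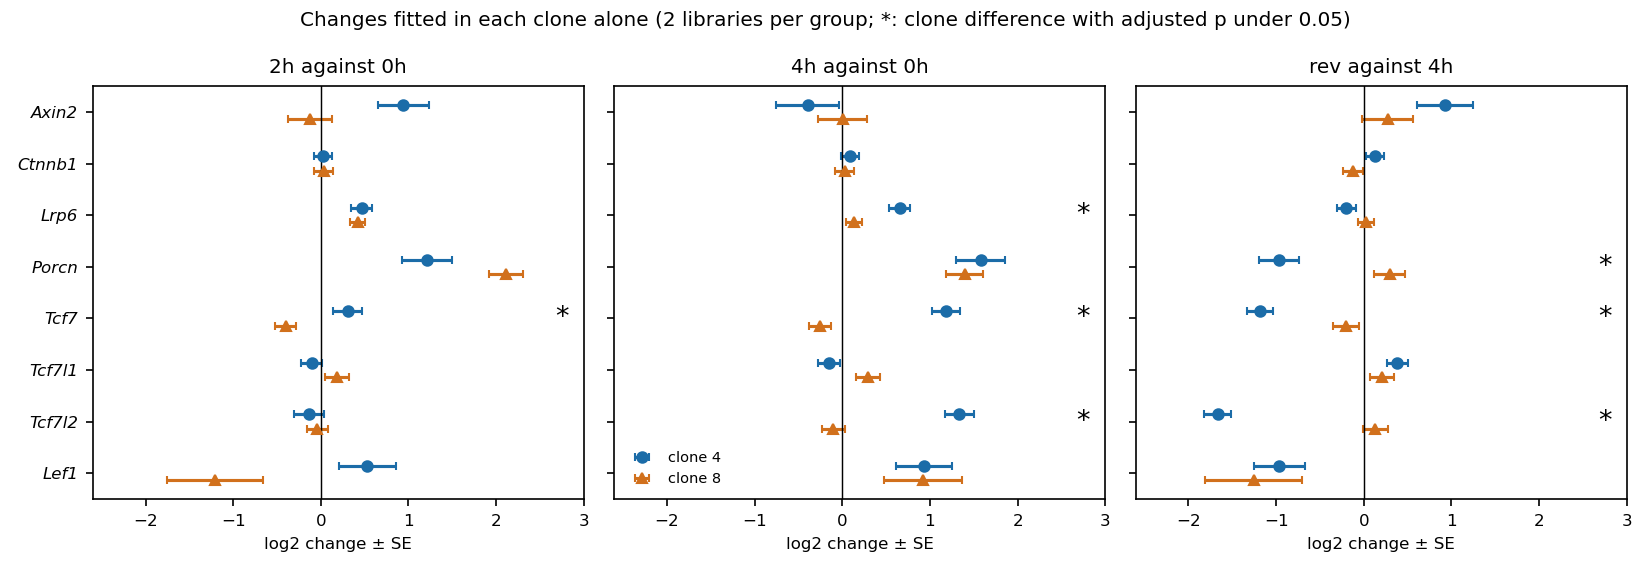
Log2 change with its standard error fitted in clone 4 alone (blue circles) and clone 8 alone (orange triangles), 2 libraries per group; a star marks a clone difference with an adjusted p under 0.05. At 4h against 0h Tcf7l2 changed by 1.34 in clone 4 and -0.10 in clone 8, and Tcf7 by 1.18 and -0.25.

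Lef1 (ENSMUSG00000027985, chr3:131110471-131224356, plus strand) was expressed at a low level and mostly in clone 4. In clone 4 it was 3.20 and 2.73 CPM at 0h, 4.67 and 3.87 CPM at 2h, 5.87 and 5.33 CPM at 4h and 3.05 and 2.72 CPM at rev. In clone 8 it was 0.83 and 1.29 CPM at 0h, 0.532 and 0.351 CPM at 2h, 1.61 and 2.45 CPM at 4h and 0.908 and 0.768 CPM at rev, from 3 to 16 counts per library. The clones did not overlap in any group, and clone 8 was 3.99-fold lower overall (log2 -2.0 ± 0.243 SE, adjusted p = 1.32e-06, edgeR). Both clones had their highest values at 4h. Over both clones Lef1 rose from 2h to 4h (log2 0.95 ± 0.297 SE, adjusted p = 0.0411, edgeR) and fell from 4h to rev (log2 -1.12 ± 0.316 SE, adjusted p = 0.0291), and 4h against 0h was 0.95 with an adjusted p of 0.0526. From 2h to 4h the change was 2.13 in clone 8 alone (adjusted p = 0.00499, edgeR), from 5 and 7 counts at 2h, and 0.40 in clone 4 alone (adjusted p = 0.31). From 4h to rev it was -0.96 in clone 4 alone (adjusted p = 0.0153, edgeR) and -1.26 in clone 8 alone (adjusted p = 0.167). Of its exon sequence 13.7% is shared with an opposite-strand gene model.

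Over both clones, Tcf7l2 also passed the test at 4h against 2h (log2 0.78 ± 0.244 SE, adjusted p = 0.0451, edgeR) and at rev against 4h (-0.88 ± 0.255 SE, adjusted p = 0.0348), and Tcf7 at rev against 4h (-0.75 ± 0.202 SE, adjusted p = 0.0237). For Tcf7l2 these pooled values rest on clone 4, since clone 8 alone had the opposite sign in both (-0.064, adjusted p = 0.80, and 0.13, adjusted p = 0.709). The pooled fall of Tcf7 at rev came mostly from clone 4, with -1.18 there and -0.21 in clone 8 alone (adjusted p = 0.496, edgeR). With clone and library number as a replicate block, 3 of these calls of TCF/LEF genes were lost, Tcf7l2 at 4h against 2h (adjusted p = 0.0757, edgeR), Lef1 at 4h against 2h (0.0618) and Tcf7l2 at rev against 4h (0.0665). Leaving out 1 library ended the calls at 4h against 2h in 10 of 16 cases for Tcf7l2 and in 8 of 16 for Lef1. At rev against 4h, Tcf7 and Tcf7l2 each lost the call without any 1 of the 4 clone 4 libraries of 4h and rev (adjusted p from 0.0711 to 0.128 and from 0.0983 to 0.186), and Lef1 without 4h clone 4 library 1, 4h clone 8 library 2 or either rev library of clone 4 (0.0549 to 0.122).

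Tcf7l1 (ENSMUSG00000055799, chr6:72626378-72789254, minus strand) encodes the TCF factor known as TCF3 in embryonic stem cells. It was 87.9 and 113 CPM in clone 4 and 78.3 and 77.7 CPM in clone 8 at 0h, between 84.0 and 97.1 CPM at 2h, and between 82.5 and 110 CPM at 4h. At rev it was 123 and 114 CPM in clone 4 and 135 and 91.7 CPM in clone 8. The groups overlapped, and no group comparison was called over both clones. Within each clone both rev libraries lay above both 0h libraries. The largest difference over both clones was 0.37 ± 0.121 SE at rev against 0h (adjusted p = 0.0552, edgeR). In clone 8 alone it was 0.50 (adjusted p = 0.0302, edgeR) and in clone 4 alone 0.23 (adjusted p = 0.197). At rev against 4h it was 0.38 in clone 4 alone (adjusted p = 0.0205, edgeR) and 0.21 in clone 8 alone (adjusted p = 0.471). Over both clones, the difference at rev against 0h passed the threshold in DESeq2 (adjusted p = 0.0473) and in 4 of 16 fits that left out 1 library. The most abundant TCF/LEF transcript was thus also one with no called change at 2h or 4h.

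The Wnt target genes were low throughout. Axin2 (ENSMUSG00000000142, chr11:108920349-108950783, plus strand), a scaffold of the β-catenin destruction complex and a widely used readout of the pathway, was 4.00 and 4.09 CPM in clone 4 and 5.60 and 4.02 CPM in clone 8 at 0h. At 2h it was 7.13 and 8.57 CPM in clone 4 and 4.71 and 4.35 CPM in clone 8. At 4h it was 3.87 and 1.78 CPM in clone 4 and 4.62 and 5.36 CPM in clone 8. At rev it was 6.78 and 5.04 CPM in clone 4 and 9.08 and 4.48 CPM in clone 8. The groups overlapped over both clones, and no comparison was called (at 2h log2 0.41 ± 0.274 SE, adjusted p = 0.332; at 4h -0.13 ± 0.3 SE, adjusted p = 0.823, edgeR).

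In clone 4 alone Axin2 rose at 2h (log2 0.94 ± 0.292 SE, adjusted p = 0.0204, edgeR), fell from 2h to 4h (-1.33 ± 0.318 SE, adjusted p = 0.00169) and rose from 4h to rev (0.93 ± 0.319 SE, adjusted p = 0.0278). In that clone Axin2 was thus lowest at 4h, when Tcf7 and Tcf7l2 were highest. In clone 8 alone the values were -0.12, 0.13 and 0.27, and none was called. The clone difference did not pass the test at 2h against 0h (-1.07 ± 0.405 SE, adjusted p = 0.0963, edgeR). The same held at 4h against 0h (0.39, adjusted p = 0.785, edgeR) and at rev against 4h (-0.63, adjusted p = 0.409). In these steps the response of Axin2 is thus not shown to differ between the clones. The clone difference from 2h to 4h was not tested. There the clones changed order without overlap, with clone 8 minus clone 4 at -0.76 in mean log2 CPM at 2h and 0.86 at 4h. The lowest value, at 4h, was 7 counts.

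Sp5 (ENSMUSG00000075304, chr2:70474923-70477729, plus strand) encodes a zinc-finger factor that is a direct β-catenin target. Its promoter held the TCF/LEF letters shown above, as did 8.65% of all promoters, so the match alone does not mark a target. Sp5 had 0, 1, 1 and 1 counts at 0h, 4, 1, 1 and 1 at 2h, 1, 0, 1 and 0 at 4h and 1, 2, 4 and 0 at rev, in the order clone 4 then clone 8. In 14 of 16 libraries it was at or under the floor of 3 counts, so no difference was detectable at this depth. Nkd1 (ENSMUSG00000031661, chr8:88521354-88594884, plus strand), an inhibitor that binds Dishevelled, had 5, 6, 12 and 11 counts at 0h, 6, 6, 14 and 7 at 2h, 2, 3, 10 and 4 at 4h and 2, 6, 3 and 6 at rev. Fitted without a filter over 31994 genes, neither was called in any comparison. The smallest p was for Nkd1 at rev against 0h (log2 -0.97, adjusted p = 0.29, edgeR), where all 4 rev libraries (0.226 to 0.908 CPM) lay below all 4 at 0h (0.909 to 1.58 CPM). The gap between these ranges was narrow, and the highest rev value was 3 counts in rev clone 8 library 1, at the floor, so no fall is shown. Within each clone Nkd1 was also below both 0h libraries at 2h and at 4h in CPM. In clone 4 the counts themselves were not lower at 2h (6 and 6, against 5 and 6 at 0h), and those at 4h (2 and 3) were at or under the floor.

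Across the 28 pairs of the 8 tested genes, the median Pearson r of log2 CPM, centred within each clone over the 16 libraries, was 0.01. The highest was 0.77 for Porcn and Lrp6, followed by 0.76 for Tcf7 and Tcf7l2, and the lowest was -0.53 for Axin2 and Tcf7l2. The genes thus did not move as 1 block. For the 3 genes with the smallest adjusted p in a group comparison, the most similar other transcripts by the same measure were Dppa2, Nup93 and Tex19.1 for Porcn (r from 0.91 to 0.96), Jak1, Far1 and Rnpc3 for Lrp6 (0.92 to 0.94), and Epb41l3, Bcl2l11 and Pura for Tcf7 (0.91 to 0.94). These are descriptions over libraries that share group, clone and depth.

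The wider pathway was read through 7 further lists of 107 genes, of which 66 could be tested. Of these 66, 9 rose and 4 fell at 2h (19.7%, beside 17% of all tested genes). At 4h 5 rose and 8 fell (19.7%, beside 12.9%), and at rev against 4h 11 rose and 3 fell (21.2%, beside 9.61%). Their median log2 change was 0.06, -0.04 and 0.10 in these comparisons, beside 0.00, -0.01 and 0.00 for all tested genes. These pooled changes were not all alike in the clones. The clone difference was called for 8 of the 66 at 2h (12.1%, beside 7.94% of all tested genes) and 12 at 4h (18.2%, beside 5.72%). At rev against 4h it was called for 17 (25.8%, beside 13.2%), 13 of them negative and 4 positive (clone 8 minus clone 4).

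Of 19 Wnt ligands, Wnt7b alone had counts enough for testing. It was 0.431 to 1.80 CPM at 0h and 0.905 to 13.7 CPM at 4h (log2 2.02 ± 0.487 SE, adjusted p = 0.00681, edgeR), with 3 to 12 counts per library at 0h. Its rise at 4h differed between the clones (clone 8 minus clone 4, -2.69, adjusted p = 0.0306).

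Among 17 tested receptors and agonists, 1 rose and 3 fell at 4h, where 12.9% of all tested genes were called and 7.35% rose. With so few genes per list, the counts of this and the following lists are a description. Fzd7, the Frizzled receptor that rose, was 9.63 to 15.5 CPM at 0h and 13.9 to 44.0 CPM at 4h (log2 1.00, adjusted p = 0.000183, edgeR) and fell from 4h to rev (-1.23, adjusted p = 4.07e-05). The clone difference in its change at 4h was -0.82 (clone 8 minus clone 4, adjusted p = 0.0226, edgeR). Ror2, a receptor of non-canonical Wnt signalling, fell at 4h (-0.79, adjusted p = 0.025, edgeR), as did Fzd4 (-0.92, adjusted p = 0.0262). From 4h to rev Fzd8 (1.03), Fzd9 (1.49), Fzd10 (0.99) and Ror2 (0.77) rose over both clones, with adjusted p from 0.000441 to 0.0378 in edgeR. In that step the clone difference was called for 4 of the 17 tested genes of this list, negative in all 4 (13.2% of all tested genes called).

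In the destruction complex and Dishevelled list 0 of 13 rose and 1 fell at 4h (12.9% of all tested genes called, 7.35% upward). This was Btrc, which encodes the ubiquitin ligase subunit that marks β-catenin for degradation. It was 23.9 to 29.2 CPM at 0h and 14.5 to 17.9 CPM at 4h without overlap (log2 -0.70 ± 0.128 SE, adjusted p = 0.00153, edgeR). Gsk3b, the kinase of the complex, rose at 2h (0.39, adjusted p = 0.00412, edgeR) and was not called at 4h against 0h (-0.12, adjusted p = 0.379).

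Of 15 nuclear cofactors, 2 rose and 1 fell at 4h (12.9% of all tested genes called, 7.35% upward). Tle4, a Groucho-family corepressor of TCF factors, was 46.7 to 81.7 CPM at 0h and 106 to 128 CPM at 2h without overlap (log2 0.78 ± 0.13 SE, adjusted p = 0.000526, edgeR) and stayed above 0h at 4h (0.70, adjusted p = 0.00145). Ctbp2, another corepressor, rose at 4h (0.52, adjusted p = 0.000994, edgeR), and Bcl9, a coactivator that binds β-catenin, fell at 2h (-0.44, adjusted p = 0.0131) and at 4h (-0.39, adjusted p = 0.0378).

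Of 10 tested inhibitors of the pathway, 0 rose and 1 fell at 4h (12.9% of all tested genes called, 7.35% upward). The 1 that fell was the secreted antagonist Sfrp1 (log2 -0.70, adjusted p = 0.00676, edgeR), whose change differed between the clones (1.20, adjusted p = 9.18e-06). Of 12 further Wnt target genes 4 could be tested, and 1 rose at 4h, beside the same 7.35% of all tested genes. This was Evx1, with 0 to 4 counts per library at 0h and 8 to 26 at 4h (adjusted p = 2.92e-05, edgeR); with so few counts at 0h its fold is uncertain.

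Of 6 pluripotency genes known as targets of TCF7L1 repression, 2 fell at 4h and 4 rose from 4h to rev. Of all tested genes, 12.9% and 9.61% were called in these comparisons in either direction. The median log2 changes of the 6 were -0.28 and 0.61. Nanog was 344 to 541 CPM at 0h and 111 to 468 CPM at 4h (log2 -0.75 ± 0.156 SE, adjusted p = 0.0049, edgeR), and it rose again at rev (1.08, adjusted p = 0.000308). Tfcp2l1 fell at 4h (-0.50, adjusted p = 0.046, edgeR). The clone differences in these changes at 4h (clone 8 minus clone 4) were 1.02 (adjusted p = 0.000308) for Nanog and 0.87 (adjusted p = 0.0027) for Tfcp2l1, by edgeR. Klf2 rose from 4h to rev (0.75, adjusted p = 0.00339, edgeR). In the change from 4h to rev the clone difference was called for 5 of the 6 genes, where 13.2% of all tested genes were. It was negative in all 5 (clone 8 minus clone 4), with a median of -0.88 over the 6, so the pooled rises are not shown to be alike in both clones. At 2h against 0h 2 of the 6 rose and 0 fell (17% of all tested genes called).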

How the data were processed

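The authors deposited 1 table of raw whole-number counts per Ensembl gene for 16 rRNA-depleted RNA libraries, with no normalization. bcl2fastq 2.19.1, STAR 2.5.3a and the build mm10 are named in the submitters' processing notes; the counting program, annotation and strand setting are not given in the sources used here. Symbols and exon lengths came from GENCODE M21 (GRCm38), where 52489 of 52636 IDs matched and 147 did not. The members and lists were chosen with earlier results of these data known.

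Low genes were removed, each from all 16 libraries at once, by edgeR's filterByExpr with the group labels given (count of 10, total of 15). The rest were scaled by TMM and tested with edgeR 4.0.16 (R 4.3.3, quasi-likelihood, group plus clone), with Benjamini-Hochberg adjustment and calls at 0.05. Clone differences came from a model of the 8 group and clone combinations, and single-clone values from fits of 1 clone. A standard error is that of the fitted contrast with the gene's quasi-dispersion. Log2 CPM used a prior count of 2. All 10 genes are described; other list genes were named by the smallest p at 4h (up to 3 per list, called in a group comparison) or a called log2 change of at least 1 with at least 50 counts in a library, and Sfrp4, Sfrp5, Ror1 and Wls, which met this rule, had called changes given in the closing section. The fit was also run on simulated counts with known changes put in at 4h. These used the same mean for both clones, so they do not cover genes whose level or response differs between clones. Libraries of the same clone and number correlated after removal of clone and group means with a mean r of -0.01, so the numbers did not pair samples beyond the clone. Alternatives were DESeq2 1.42.0, other scaling, no filter, no clone term, the replicate block, single clones, only the groups compared, omission of the abundant features, a threshold of 0.01 and leaving out each library. Depth limits genes near 3 counts; this floor covers counting error only.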

Additional observations from a re-analysis of the deposited data

Results flagged for a closer look

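Among 32 sets of 4 libraries (8 tested genes in 4 groups), 1 held a library that stood apart from the other 3 by Dixon's criterion, which chance meets in about 1 of 20 sets. This was Axin2 at 0h, where clone 8 library 1 had 5.60 CPM and the other 3 had 4.00 to 4.09 CPM.

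The change differed between the clones, by a test of the difference itself (edgeR, clone 8 minus clone 4), in 7 cases. For Tcf7 the difference was -0.72 at 2h against 0h, -1.45 at 4h against 0h and 0.98 at rev against 4h. For Tcf7l2 it was -1.45 at 4h against 0h and 1.81 at rev against 4h. For Porcn it was 1.28 at rev against 4h. For Lrp6 it was -0.53 at 4h against 0h. Each clone contributed 2 libraries per group, and the ERK response genes differed between the clones in the same steps, with 8 of 10 changing less in clone 8 at 4h.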

How the results depend on the processing

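Of 21 called results of the 8 genes, 5 kept direction and call under every alternative: Porcn at 2h and at 4h against 0h, Lef1 and Lrp6 between the clones, and Tcf7l2 in the clone difference at rev against 4h; of 59 results without a call, 41 kept that side throughout. The sign turned for Tcf7l2 with clone 8 alone, to -0.064 at 4h against 2h and 0.13 at rev against 4h. The cause of the changes below was not tested.

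With library totals as the only scaling, the median of all genes moved to 0.11 at 2h, -0.14 at 4h against 2h, -0.20 at rev against 4h, -0.24 at rev against 0h, -0.35 at rev against 2h, and 0.56, 0.35 and -0.67 in the 3 clone differences. The number of the 8 genes called became 1 at 2h and at 4h against 0h, 0 at 4h against 2h and at rev against 0h, 1 at rev against 2h, and 0, 0 and 1 in the clone differences at 2h, 4h and rev. All genes called fell from 2162 to 446 at 2h, 1645 to 508 at 4h, 1547 to 385 at 4h against 2h, 1224 to 530 at rev against 4h and 1332 to 449 at rev against 0h, and the share of higher calls went from 46.9 to 15.8% at rev against 4h and from 52.7 to 23.6% at rev against 0h. Without a filter 5 of the genes were called at 4h against 0h, 2 at rev against 0h and 1 at rev against 2h. Of all 31994 genes in that fit, 1877, 1488 and 483 were called. DESeq2 called 3 at rev against 0h (1335 of all genes) and 0 in the clone difference at 2h (525 of all genes). Without the clone term 1 was called at 2h, 1 at 4h, and 0 in the remaining 3 that had calls (4h against 2h and rev against 4h or 0h), and all genes called were 757, 546, 266, 251 and 273. Clone 4 alone gave 5 at 4h against 0h and 6 at rev against 4h, where 19% and 24.6% of all tested genes were called; clone 8 alone gave 1 and 0, and 3 at rev against 0h, where 6.28%, 6.42% and 9.9% were. Only the groups compared gave 0 at 4h against 2h (958 of all genes, from 1547). That setting gave 3 at rev against 0h (1537 of all genes, from 1332) and 2 at rev against 2h (831 of all genes, from 227). A threshold of 0.01 left 1 at 4h against 0h, 0 at 4h against 2h and at rev against 4h, and 0 in the clone difference at 2h. All genes called in these 4 were then 694, 457, 494 and 416.

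With the replicate block, where clone and library number form the paired unit, 0 genes were called at 4h against 2h; the 3 lost calls are given above with their values, and the block changed no other call of the 8 genes. Leaving out 1 library gave 1 to 4 called genes at 4h against 0h, 0 to 3 at 4h against 2h, 0 to 3 at rev against 4h, 1 to 3 at rev against 0h, 3 to 4 between the clones, and 0 to 1, 2 to 3 and 2 to 3 in the clone differences at 2h, 4h and rev; at 2h it stayed at 2 and at rev against 2h at 0. In the clone differences this leaves 1 library in an arm, which is assumed to vary like the others. The clone call of Porcn (log2 0.48, adjusted p = 0.0274, edgeR) was lost without any 1 of the 4 libraries of 2h, both rev libraries of clone 4 or rev clone 8 library 2 (0.0552 to 0.0818). Lef1, Sp5 and Nkd1 are limited by depth.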

Other observations

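Further receptor and inhibitor genes of the pathway changed in comparisons not described above. Wls, which carries Wnt ligands to the cell surface, was 1.80 to 6.10 CPM at 2h and 1.20 to 3.32 CPM at 4h and fell between them (log2 -1.20, adjusted p = 0.0173, edgeR). Ror1 was lower at rev than at 0h (-1.58, adjusted p = 0.00596, edgeR), and it was lower in clone 8 than in clone 4 (-2.41, adjusted p = 2.38e-07). The secreted antagonist Sfrp4 was lower than at 0h at 2h (-1.20, adjusted p = 0.0228, edgeR) and at rev (-1.49, adjusted p = 0.0191). It was not called at 4h against 0h, so a lasting fall is not shown. In no library did Sfrp4 reach the count that the naming rule above requires for a large change, so its folds are uncertain. Sfrp5 rose from 4h to rev (1.57, adjusted p = 0.0252, edgeR).

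The clones differed in level for 38 of the 66 further pathway genes, 25 higher and 13 lower in clone 8 (57.6%, beside 34.9% of all tested genes). Among the 8 tested genes of the report, 4 differed, with Lrp6 and Porcn higher and Lef1 and Ctnnb1 lower in clone 8 over all groups. Porcn went the other way at 4h, where the mean log2 CPM of clone 8 minus clone 4 was -0.25 without overlap; this difference was 0.05 at 0h with overlap, 0.87 at 2h and 1.02 at rev. The secreted antagonist Sfrp1 was higher in clone 8 (log2 1.46, adjusted p = 7.81e-09, edgeR), as was Sfrp5 (2.40, adjusted p = 4.5e-06), and the receptor Fzd7 was lower (-0.99, adjusted p = 4.56e-07).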
